A study of Nothobranchius furzeri with 16 samples.

Results

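The genes described here encode parts of the mitochondrial protein import machinery (symbols TIMM or TOMM followed by a digit) and members of the SLC25 family of mitochondrial carriers (symbols SLC25A followed by a digit). In the brain table of the turquoise killifish Nothobranchius furzeri, 81 rows carried such a symbol, and 65 of them reached at least 1 TPM (transcripts scaled to a common total in each fish, with gene length divided out) in at least 8 of 16 fish. These 65, of the 18529 genes that reached that level out of 26739 rows, comprised 17 import genes and 48 carrier genes. All 65 reached 1 TPM in all 16 fish. The other 16 rows stayed under the minimum: SLC25A15A, SLC25A38A, SLC25A4, SLC25A45, 1 row of SLC25A40, 1 row of TOMM40L and 10 rows named SLC25A44A. SLC25A4, an ADP/ATP carrier, averaged 0.308 TPM in bortezomib fish and 0.521 TPM in DMSO fish. None of the 81 rows carried the symbol TOMM5, TOMM6, TIMM8A, TIMM10, TIMM13, SLC25A5 or SLC25A12, so these were not analysed here.

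Most mitochondrial proteins are made in the cytosol and enter through the outer-membrane TOM complex, in which receptors hand precursors to a pore. Proteins with a cleavable presequence then pass the inner membrane through the TIM23 translocase, pulled by a motor that TIMM44 tethers to the channel. Most SLC25 carriers have no such presequence. Carriers are received mainly by the TOM70 receptor, escorted by small TIM chaperones and inserted by the TIM22 translocase. Most of the carriers move substrates such as ADP and ATP, phosphate, amino acids, organic acids, iron and cofactors across the inner membrane. Neurons depend on such carriers for ATP supply and glutamate handling.

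The study compared 2 groups of 8 individual brains. Bortezomib, an inhibitor of the chymotrypsin-like activity of the proteasome, was injected into the body cavity at 500 µM and 10 µl per g body weight, 5 times over 4 weeks (days 0, 6, 12, 18 and 24). Controls (DMSO fish) were injected on those days with an equal volume of vehicle, which was salt solution with 1% DMSO. No DMSO percentage was listed for the bortezomib injections. All fish were adults aged 12 to 14 weeks post hatch when treated, came from 1 hatch and were allocated at random, and both sexes were in each group; the sex of each fish was not given in the sources used here. Whole brains were homogenised, so fewer cells of a type and less RNA per cell cannot be told apart in any value below, and an injection into the body cavity leaves the dose reaching the brain unmeasured in these data.

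Neuronal and glial markers were expressed in every brain. The 17 rows of neuronal markers summed to 5515 to 6284 TPM in bortezomib fish (median 5845) and to 4137 to 5759 TPM in DMSO fish (median 4984), and 2 of the 17 were called higher. The 8 rows of oligodendrocyte markers summed to 5864 to 11010 TPM in bortezomib fish (median 8224) and to 7770 to 14142 TPM in DMSO fish (median 10588), and 1 of the 8 was called higher. The 9 rows of radial glia and astrocyte markers summed to 2234 to 3727 TPM in bortezomib fish and to 2080 to 3007 TPM in DMSO fish, and 1 of the 7 tested was called lower. Of 8 tested rows of skeletal muscle markers 1 was called lower, and of 6 of erythrocyte markers none was called. Over all tested genes 3.61% were called higher and 1.25% lower (limma, adjusted p under 0.05). No marker row was at 0 in all fish. In 4 fish (bortezomib replicates 6 and 7, DMSO replicates 5 and 6) the pituitary markers summed to 2141 to 6092 TPM, against 10.1 to 21.3 TPM in the other 12. Bortezomib replicate 8 stood apart from the other bortezomib fish, with the lowest value of its group in 44.2% of all tested genes. Sequencing depth relative to the typical fish lay between 0.875 and 1.11 for the bortezomib brains and between 0.863 and 1.39 for the DMSO brains. The part of these differences between brains in the results below was not tested; the counts of called import and carrier genes are also given without the 4 fish with pituitary transcripts.

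Transcript levels, comparable between genes as TPM, covered a wide range. The most abundant members were the carriers SLC25A53 and both rows of SLC25A6, an ADP/ATP carrier. SLC25A53, a symbol taken from the file and not checked against sequence, averaged 1425 ± 167 TPM in bortezomib fish and 1526 ± 143 TPM in DMSO fish (SD, n = 8 each, as for all values below). SLC25A6 averaged 1128 ± 118 TPM in bortezomib fish and 1206 ± 127 TPM in DMSO fish for the row Nfu_g_1_005294. Its other row, Nfu_g_1_004319, averaged 796 ± 60.5 TPM in bortezomib fish and 861 ± 81.0 TPM in DMSO fish. Together these 3 rows held 69.6% to 78.4% of all carrier TPM in bortezomib fish and 71.6% to 75.1% in DMSO fish. Among import genes the most abundant were TOMM20B, a receptor, TOMM7, a small subunit of the TOM complex, and TOMM22, the central receptor. At the other end stood SLC25A43, with 2.12 ± 0.246 TPM in bortezomib fish and 2.91 ± 1.28 TPM in DMSO fish. The median level over both groups was 37.7 TPM for import genes, 21.3 TPM for carrier genes and 13.6 TPM for all tested genes.

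**Figure D1:**
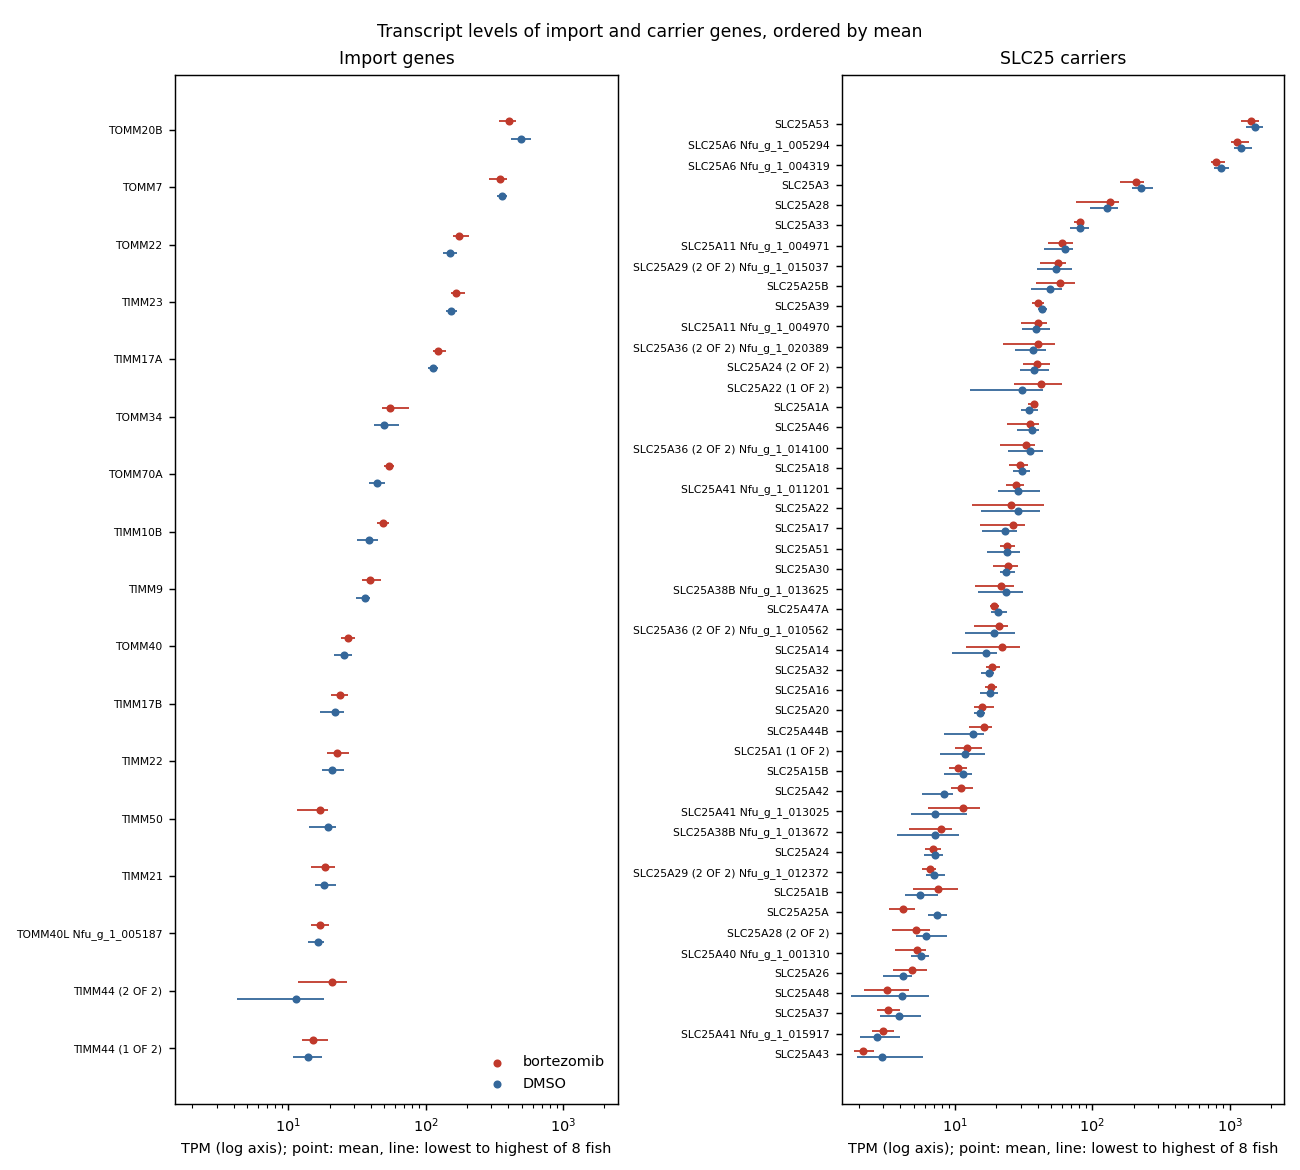
Mean TPM of the tested import and carrier genes, except 1 carrier that is not drawn, in bortezomib and DMSO brains (n = 8 each), on a log axis; lines run between the lowest and highest fish. Levels run from 2.12 TPM for SLC25A43 to 1425 TPM for SLC25A53 in bortezomib fish, and most genes lie close together in the 2 groups.

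The sum over the import genes hardly separated the groups, while the carrier sum had the lower median in bortezomib fish. Import TPM summed to 1493 to 1686 in bortezomib fish (median 1569) and to 1513 to 1672 in DMSO fish (median 1567). That sum includes TOMM20B, the most abundant import gene, which averaged 404 TPM in bortezomib fish and 491 TPM in DMSO fish. The log2 fold change was positive in 14 of 17 import genes, so the sum does not show the direction of most of them. Carrier TPM summed to 4392 to 4923 in bortezomib fish (median 4681) and to 4678 to 5259 in DMSO fish (median 4908), so the groups overlapped. Without the 3 most abundant rows the carriers summed to 1336 ± 127 TPM in bortezomib fish and 1317 ± 89.4 TPM in DMSO fish. None of those 3 rows passed the test: SLC25A53 had an adjusted p of 0.46, and the SLC25A6 rows Nfu_g_1_004319 and Nfu_g_1_005294 had adjusted p of 0.32 and 0.461 (limma).

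Of the 17 import genes, 3 were called higher and 1 lower in bortezomib fish, and 13 did not pass the test. Genes were called where the adjusted p of the limma test on log2(TPM + 1), Benjamini-Hochberg over all 18529 tested genes, was under 0.05. Over all tested genes 4.86% were called, 3.61% higher and 1.25% lower; the share was 23.5% for import genes, which is 4 genes. At an unadjusted p under 0.05, 6 import genes were higher and 1 lower, beside 14.2% and 6.94% of all tested genes. TOMM70A, TIMM10B and the TIMM44 row labelled (2 OF 2) rose, and TOMM20B fell. The log2 fold changes of the import genes (bortezomib minus DMSO) had a median of 0.12 (0.09 with median-of-ratios scaling, 0.07 with quantile normalization). They were positive in 14 of 17 genes and lay within 0.2 of 0 for 13 of the 17. The positive count was 13 with either of those scalings or without the 4 pituitary-marker fish, and 12 with the first principal component as covariate. Over all tested genes the median was 0.03 and 56.6% were positive.

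Among the receptors, TOMM70A rose, TOMM20B fell and TOMM22 did not pass the test. TOMM70A, which receives carrier precursors, ranged between 50.0 and 59.1 TPM (median 53.1) in bortezomib fish and between 38.4 and 50.2 TPM (median 43.3) in DMSO fish. The ranges met only at DMSO replicate 5, and 7 of 8 bortezomib fish were above the highest DMSO fish. Its mean was 53.7 ± 2.94 TPM in bortezomib fish and 43.9 ± 3.44 TPM in DMSO fish, a log2 fold change of 0.29 ± 0.06 (SE; limma, adjusted p = 0.00942).

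TOMM20B, a receptor for presequences, ranged between 342 and 457 TPM (median 405) in bortezomib fish and between 419 and 582 TPM (median 489) in DMSO fish. In 6 of 8 bortezomib fish the level was below that of every DMSO fish. The means were 404 ± 34.8 TPM in bortezomib fish and 491 ± 49.3 TPM in DMSO fish, and the log2 fold change was -0.28 ± 0.07 (limma, adjusted p = 0.0275). The call was lost without the 4 pituitary-marker fish (-0.29, adjusted p = 0.114) and in 4 of the 16 fits that left out 1 fish (bortezomib replicate 2, 4 or 6, or DMSO replicate 7; limma, adjusted p up to 0.0572).

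TOMM22, which links the receptors to the pore, ranged between 157 and 207 TPM (median 168) in bortezomib fish and between 133.5 and 167.5 TPM (median 152) in DMSO fish. Its log2 fold change of 0.20 ± 0.06 missed the threshold (limma, adjusted p = 0.0851). Thus 1 receptor was called in each direction. The pore gene TOMM40 averaged 27.0 ± 1.94 TPM in bortezomib fish and 25.2 ± 2.78 TPM in DMSO fish. Its relative TOMM40L (row Nfu_g_1_005187) averaged 17.1 ± 1.58 TPM in bortezomib fish and 16.3 ± 1.27 TPM in DMSO fish. TOMM7 averaged 345 ± 37.1 TPM in bortezomib fish and 357 ± 25.5 TPM in DMSO fish (adjusted p = 0.674). None of these 3 genes passed the test, nor did the cytosolic co-chaperone TOMM34, which averaged 54.8 ± 9.13 TPM in bortezomib fish and 49.8 ± 6.90 TPM in DMSO fish.

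Along the carrier route through the intermembrane space, 1 of 3 genes rose. TIMM10B, one of the small TIM proteins bound to the TIM22 translocase, ranged between 43.9 and 53.6 TPM (median 47.9) in bortezomib fish and between 31.4 and 44.9 TPM (median 38.5) in DMSO fish. Only bortezomib replicate 7 lay within the DMSO range. The means were 48.4 ± 2.86 TPM in bortezomib fish and 38.5 ± 4.66 TPM in DMSO fish, a log2 fold change of 0.33 ± 0.07 (limma, adjusted p = 0.0160). It held in all 16 fits that left out 1 fish, but not without the 4 pituitary-marker fish (0.28, adjusted p = 0.0698). TIMM9, an escort chaperone, averaged 39.4 ± 3.90 TPM in bortezomib fish and 36.1 ± 2.85 TPM in DMSO fish. TIMM22, the translocase channel, averaged 22.7 ± 2.47 TPM in bortezomib fish and 20.8 ± 2.74 TPM in DMSO fish. Both missed the threshold.

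In the TIM23 translocase and its motor, 1 of 7 genes rose. TIMM44 is annotated as 2 rows, and the row labelled (2 OF 2) ranged between 11.8 and 26.6 TPM (median 21.4) in bortezomib fish and between 4.25 and 18.0 TPM (median 10.2) in DMSO fish. DMSO replicates 1, 5 and 6 stood at 16.6, 18.0 and 17.7 TPM, and the other 5 DMSO fish at 4.25 to 11.7 TPM. Bortezomib replicate 3, at 11.8 TPM, was the single bortezomib fish within the DMSO range. The means were 20.9 ± 4.51 TPM in bortezomib fish and 11.3 ± 5.51 TPM in DMSO fish, and the log2 fold change was 0.93 ± 0.26 (limma, adjusted p = 0.0443), the largest among the 65 genes. The call was lost in 12 of the 16 fits that left out 1 fish, all except those without bortezomib replicate 3 or DMSO replicate 1, 5 or 6 (limma, adjusted p up to 0.0886), and without the 4 pituitary-marker fish (1.13, adjusted p = 0.0545). The row labelled (1 OF 2) averaged 15.2 ± 2.38 TPM in bortezomib fish and 14.0 ± 2.21 TPM in DMSO fish and was not called.

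The remaining genes of this group showed smaller differences, with little spread for TIMM23 and TIMM17A. TIMM23, the channel, averaged 167 ± 12.3 TPM in bortezomib fish and 153 ± 10.1 TPM in DMSO fish (limma, adjusted p = 0.209). TIMM17A, its partner, averaged 122 ± 9.50 TPM in bortezomib fish and 112 ± 6.93 TPM in DMSO fish (limma, adjusted p = 0.222). TIMM17B averaged 23.8 ± 2.61 TPM in bortezomib fish and 21.6 ± 2.77 TPM in DMSO fish. TIMM21 averaged 18.4 ± 2.28 TPM in bortezomib fish and 18.1 ± 2.17 TPM in DMSO fish. TIMM50, the presequence receptor of the complex, was the only one of the 7 with a lower bortezomib mean, 17.0 ± 2.43 TPM against 19.5 ± 2.44 TPM in DMSO fish. None of these 5 genes was called.

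**Figure D2:**
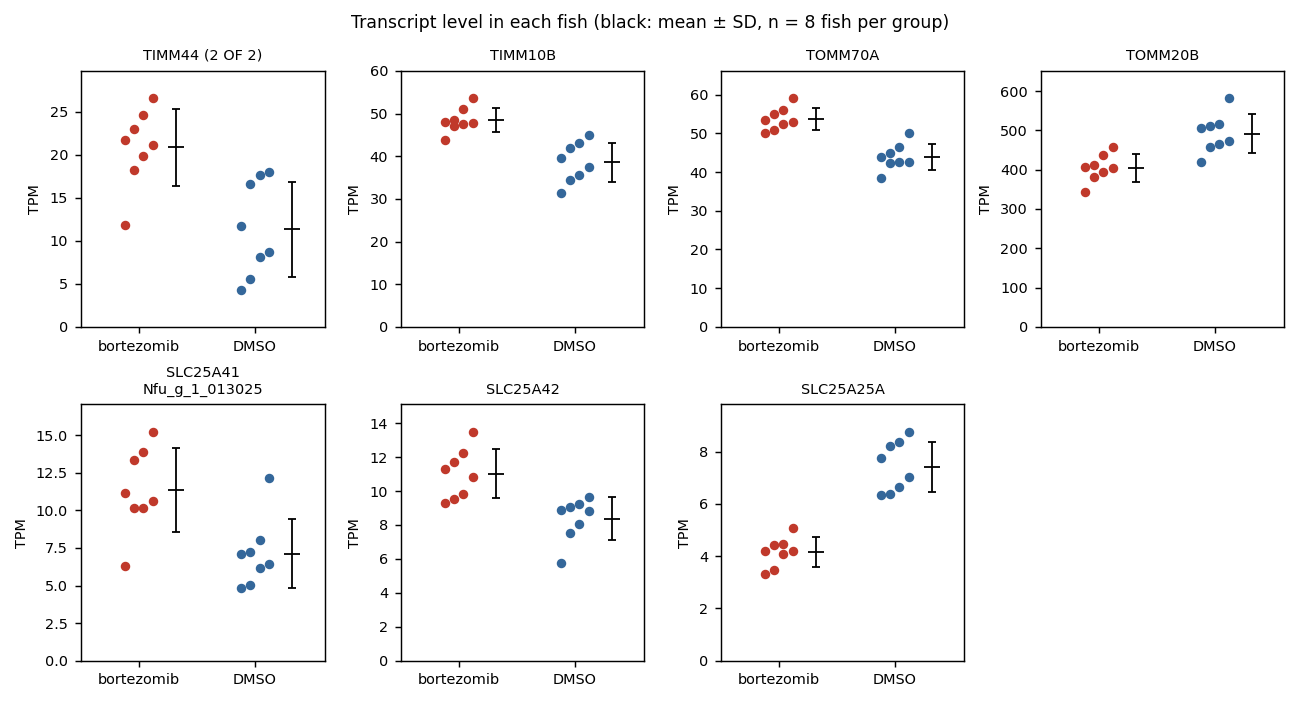
TPM of the 7 called import and carrier genes in each fish, bortezomib left and DMSO right, with the mean ± SD of each group in black. SLC25A25A is the gene whose groups do not overlap; in TOMM70A, TIMM10B and TIMM44 (2 OF 2) a single bortezomib fish lies within the DMSO range.

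Of the 48 carrier genes, 2 were called higher (SLC25A41 row Nfu_g_1_013025 and SLC25A42), 1 lower (SLC25A25A), and 45 did not pass the test. The called share was 6.25%, beside 4.86% of all tested genes. The median log2 fold change of the carriers was 0.03, the same to 2 decimals as that of all tested genes, with 25 positive and 23 negative values (20 and 28 with quantile normalization, median -0.02), and 37 of 48 lay within 0.2 of 0. At an unadjusted p under 0.05, 6 carriers were higher and 1 lower, where the shares of all tested genes were 14.2% and 6.94%.

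SLC25A25A and SLC25A41 are ATP-magnesium/phosphate carriers, which adjust the adenine nucleotide content of the matrix and carry calcium-binding domains in several members. SLC25A25A ranged between 3.32 and 5.09 TPM (median 4.20) in bortezomib fish and between 6.34 and 8.75 TPM (median 7.38) in DMSO fish. Every bortezomib fish was below every DMSO fish, which was so in 0.221% of all tested genes. The means were 4.16 ± 0.565 TPM in bortezomib fish and 7.43 ± 0.955 TPM in DMSO fish, a log2 fold change of -0.71 ± 0.09 (limma, adjusted p = 0.000235). This was the smallest adjusted p among the 65 genes, and the call held under every alternative run, including without the 4 pituitary-marker fish.

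SLC25A41 is represented by 3 rows. The called row, Nfu_g_1_013025, ranged between 6.31 and 15.2 TPM (median 10.9) in bortezomib fish and between 4.81 and 12.1 TPM (median 6.78) in DMSO fish. The groups overlapped, with bortezomib replicate 8 at the bottom of its group and DMSO replicate 8 at the top of its own, and 3 bortezomib fish were above the highest DMSO fish. Its means were 11.3 ± 2.77 TPM in bortezomib fish and 7.11 ± 2.30 TPM in DMSO fish, a log2 fold change of 0.61 ± 0.17 (limma, adjusted p = 0.0499). The call was lost in 14 of the 16 fits that left out 1 fish, all but those without bortezomib replicate 8 or DMSO replicate 8 (limma, adjusted p up to 0.104), and without the 4 pituitary-marker fish (0.53, adjusted p = 0.188). The row Nfu_g_1_011201 averaged 27.8 ± 2.92 TPM in bortezomib fish and 28.6 ± 6.73 TPM in DMSO fish. The row Nfu_g_1_015917 averaged 3.01 ± 0.336 TPM in bortezomib fish and 2.71 ± 0.636 TPM in DMSO fish. Neither was called. SLC25A25B, the other SLC25A25 copy, averaged 57.9 ± 11.8 TPM in bortezomib fish and 48.9 ± 7.93 TPM in DMSO fish and was not called. It passed only with the first principal component as covariate (log2 fold change 0.41; limma, adjusted p = 0.0472). SLC25A24 averaged 6.93 ± 0.721 TPM in bortezomib fish and 7.09 ± 0.724 TPM in DMSO fish, and its row labelled (2 OF 2) averaged 39.4 ± 5.44 TPM in bortezomib fish and 37.4 ± 6.24 TPM in DMSO fish.

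SLC25A42, the coenzyme A carrier, was the called member of the cofactor carriers. It ranged between 9.30 and 13.5 TPM (median 11.1) in bortezomib fish and between 5.73 and 9.62 TPM (median 8.87) in DMSO fish, and 6 bortezomib fish were above the highest DMSO fish. Its means were 11.0 ± 1.45 TPM in bortezomib fish and 8.37 ± 1.25 TPM in DMSO fish, a log2 fold change of 0.36 ± 0.10 (limma, adjusted p = 0.0499). The call was lost in 15 of the 16 fits that left out 1 fish, the exception being bortezomib replicate 3 (limma, adjusted p up to 0.0966), and without the 4 pituitary-marker fish (0.38, adjusted p = 0.138). All 7 cofactor carriers had positive log2 fold changes (6 with median-of-ratios scaling, 5 with quantile normalization), with a median of 0.17 (0.11 without DMSO replicate 5, 0.04 without the 4 pituitary-marker fish); 6 of them did not pass the test. SLC25A32, linked to folate and flavin transport, averaged 18.6 ± 1.53 TPM in bortezomib fish and 17.6 ± 1.50 TPM in DMSO fish. SLC25A51, the NAD carrier, averaged 24.0 ± 1.89 TPM in bortezomib fish and 23.8 ± 3.71 TPM in DMSO fish.

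No gene of the remaining carrier groups was called. All 3 rows for adenine nucleotides and phosphate, the 2 of SLC25A6 and SLC25A3, had negative log2 fold changes with a median of -0.11. SLC25A3, the phosphate carrier, averaged 207 ± 26.5 TPM in bortezomib fish and 227 ± 28.3 TPM in DMSO fish. The 9 amino acid carriers had 4 positive and 5 negative log2 fold changes (3 and 6 with quantile normalization, 5 and 4 with the first principal component as covariate). The 2 rows of SLC25A22, a glutamate carrier, had log2 fold changes of opposite sign, and neither was called. The one labelled (1 OF 2) ranged between 26.8 and 60.4 TPM in bortezomib fish and between 12.8 and 43.7 TPM in DMSO fish, with a log2 fold change of 0.48 ± 0.21 (limma, adjusted p = 0.202), and one of 0.31 without DMSO replicate 7. The other SLC25A22 row averaged 25.5 ± 10.4 TPM in bortezomib fish and 28.8 ± 7.97 TPM in DMSO fish. SLC25A44B, of the branched-chain amino acid carrier, averaged 16.2 ± 1.92 TPM in bortezomib fish and 13.6 ± 2.41 TPM in DMSO fish.

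The 6 carriers of organic acids and acylcarnitine had 5 positive log2 fold changes (4 with quantile normalization or without the 4 pituitary-marker fish). SLC25A1B, a citrate carrier copy, averaged 7.50 ± 1.90 TPM in bortezomib fish and 5.58 ± 1.08 TPM in DMSO fish, with the smallest adjusted p among the carriers not called (limma, 0.152). SLC25A20, the carnitine/acylcarnitine carrier, averaged 15.8 ± 1.72 TPM in bortezomib fish and 15.1 ± 0.908 TPM in DMSO fish. The 2 rows of SLC25A11, the oxoglutarate/malate carrier, averaged 40.4 ± 6.20 and 59.6 ± 9.05 TPM in bortezomib fish and 38.7 ± 6.16 and 63.4 ± 8.85 TPM in DMSO fish. Of the 4 iron and glutathione carriers, 3 had negative log2 fold changes (all 4 with quantile normalization). The iron carriers SLC25A28 and SLC25A37 (mitoferrins) averaged 135 ± 25.2 and 3.23 ± 0.414 TPM in bortezomib fish and 127 ± 18.1 and 3.88 ± 1.07 TPM in DMSO fish. The row SLC25A28 (2 OF 2) averaged 5.23 ± 1.01 TPM in bortezomib fish and 6.14 ± 1.17 TPM in DMSO fish. Its log2 fold change was -0.20 ± 0.12 (limma, adjusted p = 0.347). SLC25A39, the glutathione carrier, averaged 40.1 ± 3.14 TPM in bortezomib fish and 43.3 ± 2.23 TPM in DMSO fish. SLC25A14, a relative of the uncoupling proteins, averaged 22.0 ± 4.88 TPM in bortezomib fish and 16.7 ± 3.42 TPM in DMSO fish (limma, adjusted p = 0.186). Without bortezomib replicate 8 it was called, at 0.49 (limma, adjusted p = 0.0384). SLC25A43 had the third most negative log2 fold change of all 65 genes, -0.27 ± 0.15, and did not pass (limma, adjusted p = 0.293). Without DMSO replicate 1, which stood at 5.80 TPM, it was -0.15. The 4 rows of pyrimidine nucleotide carriers, SLC25A33 and 3 of SLC25A36, had 2 positive and 2 negative log2 fold changes.

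**Figure D3:**
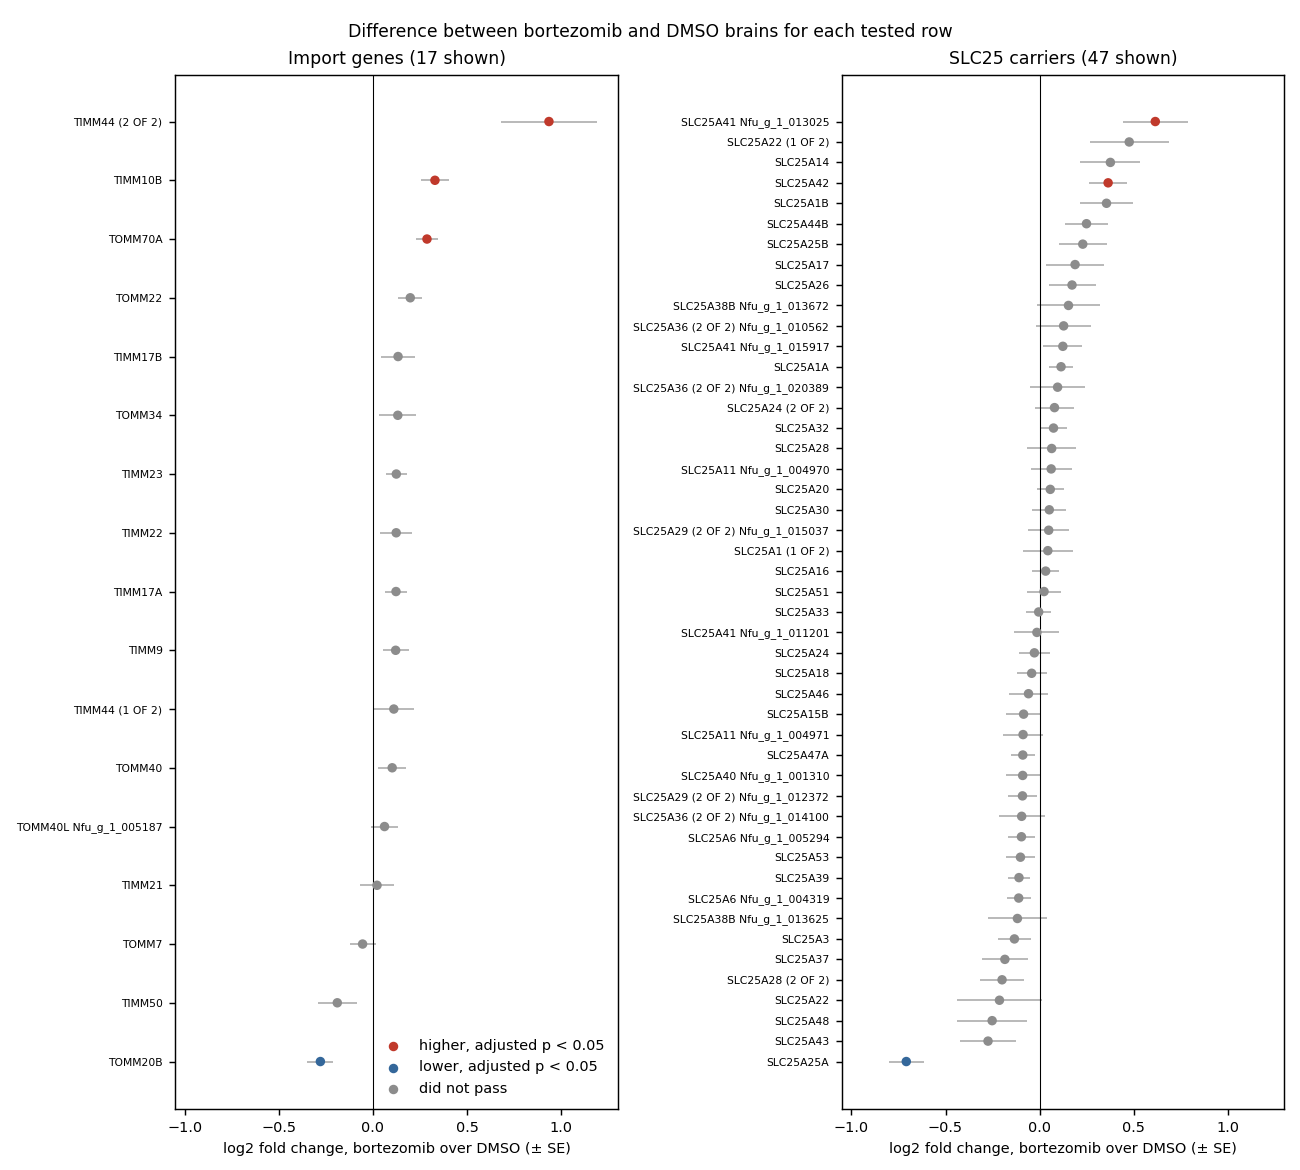
Log2 fold change (bortezomib minus DMSO, on log2(TPM + 1)) with its standard error for the tested genes, except 1 carrier that is not drawn, import and carrier genes shown apart and called genes marked. Import values centre on 0.12 and carrier values on 0.03; SLC25A25A, at -0.71, and TIMM44 (2 OF 2), at 0.93, are the extremes.

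Rows whose symbols matched apart from a copy label such as (2 OF 2) or a final letter A or B were paired. Some pairs, such as SLC25A25A and SLC25A25B, thus carry separate symbols and can be separate genes. The balance between the rows of a pair was compared in each fish as the difference of their log2(TPM + 1) values. Of 19 such pairs, 3 passed an exact two-sided permutation test over all 12870 splits of the 16 fish, with Benjamini-Hochberg adjustment over the 19 pairs. These differences reuse the values of the called genes above, and the comparison was added after those values were seen. SLC25A25B exceeded SLC25A25A by 3.49 ± 0.29 in bortezomib fish and by 2.56 ± 0.29 in DMSO fish. The groups did not overlap (3.16 to 3.80 in bortezomib fish, 2.20 to 3.06 in DMSO fish), and p was 0.0001554, the smallest these splits allow (adjusted p = 0.00295, exact permutation). TIMM44 (1 OF 2) minus TIMM44 (2 OF 2) was -0.42 ± 0.27 in bortezomib fish and 0.41 ± 0.55 in DMSO fish (exact permutation p = 0.002642, adjusted p = 0.0251), so the row with the higher mean differed between the groups. In single fish the difference ran from -0.75 to 0.07 in bortezomib fish and from -0.39 to 1.17 in DMSO fish, so the groups overlapped. SLC25A41 row Nfu_g_1_011201 minus row Nfu_g_1_013025 was 1.25 ± 0.31 in bortezomib fish and 1.88 ± 0.41 in DMSO fish (exact permutation p = 0.005594, adjusted p = 0.0354). Row Nfu_g_1_013025 minus row Nfu_g_1_015917 did not pass (exact permutation p = 0.02362, adjusted p = 0.112). Neither did row Nfu_g_1_011201 minus row Nfu_g_1_015917 (exact permutation p = 0.04258, adjusted p = 0.135). The SLC25A22 pair differed by 0.69 between the groups and did not pass (exact permutation p = 0.07444, adjusted p = 0.144). Rows of 1 symbol can be true gene copies or fragments whose reads were split, and the file does not tell these apart; 16 of the 65 genes share their symbol with another row.

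**Figure D4:**
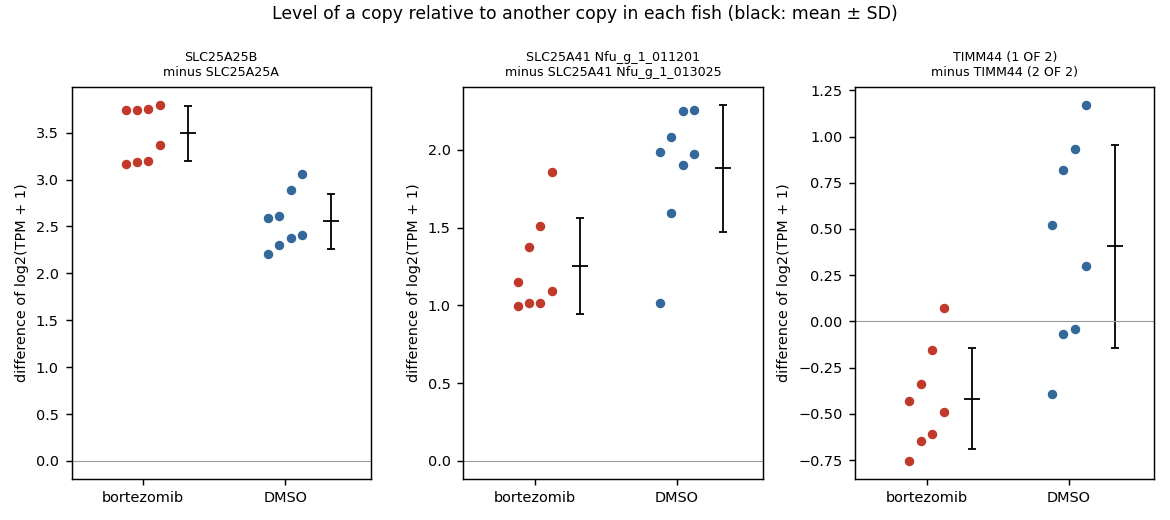
Difference between the log2(TPM + 1) values of 2 rows with matching symbols in each fish, bortezomib left and DMSO right, for the 3 pairs that passed. The SLC25A25 pair lies between 3.16 and 3.80 in bortezomib fish, above all DMSO fish, and the TIMM44 pair is mostly below 0 in bortezomib fish.

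Set side by side, import genes had the larger called share (23.5% against 6.25% of carrier genes) and the larger median log2 fold change (0.12 against 0.03). They also had smaller errors: the median standard error of a log2 fold change was 0.073 for import genes, 0.107 for carrier genes and 0.127 for all tested genes. A difference of a given size thus passed more easily among import genes. Per fish, the mean log2 value of the import genes, centred gene by gene, lay between -0.0046 and 0.13 in bortezomib fish and between -0.16 and -0.0055 in DMSO fish. The ranges did not overlap but were separated by only a small gap. That gap depended on TIMM44 (2 OF 2), which had a log2 fold change of 0.93: without that row the ranges overlap. All fish entered the centring, so the per-fish mean repeats the fold changes above. For carriers it lay between -0.23 and 0.11 in bortezomib fish and between -0.15 and 0.11 in DMSO fish, with the groups mixed. No such per-fish mean was computed over all tested genes, of which 56.6% had positive log2 fold changes.

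Bortezomib replicate 8 set the lower end of the carrier range. It had the lowest value of the bortezomib fish in 24 of 48 carriers and in 2 of 17 import genes, beside 44.2% of all tested genes. Its value was the highest in 6 of 17 import genes, beside 7.80% of all tested genes. Import minus carrier was 0.329 in that fish, between -0.0788 and 0.0808 in the other 7 bortezomib fish, and between -0.126 and 0.0567 in DMSO fish. Without it the median log2 fold change was 0.09 for import genes, 0.03 for carriers and 0.07 for all tested genes. Without the 4 pituitary-marker fish, 1 import gene (TOMM70A) was called higher and none lower (limma), a share of 5.88% beside 1.75% of all tested genes, and the import median was 0.09. The carriers then had 1 call, SLC25A25A.

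**Figure D5:**
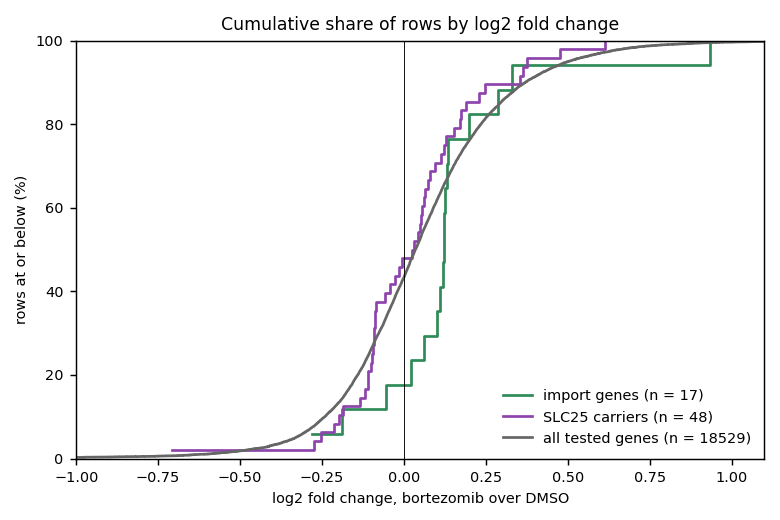
Cumulative share of genes by log2 fold change (bortezomib minus DMSO) for the 17 import genes, the 48 carrier genes and all 18529 tested genes; the axis stops short of the most extreme of all genes. The import curve lies to the right of the other 2 near its median of 0.12, while the carrier curve crosses that of all genes near their medians of 0.03.

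Other mitochondrial genes, among them import factors that carry other symbols, were examined as lists that contain none of the 81 rows. Those rows were chosen by symbol, so the lists can hold SLC25 family genes under other symbols. Of 38 import chaperones, proteases and assembly factors, 2 were called higher and none lower, a share of 5.26% beside 4.86% of all tested genes, and the median log2 fold change was 0.05, beside 0.03 of all tested genes. SAMM50, which inserts barrel-shaped proteins into the outer membrane, averaged 32.3 ± 3.46 TPM in bortezomib fish and 21.8 ± 1.89 TPM in DMSO fish, with all 8 bortezomib fish above all DMSO fish, which was so in 1.08% of all tested genes. Its log2 fold change was 0.54 ± 0.08 (limma, adjusted p = 0.000517) and held without the 4 pituitary-marker fish. CHCHD4, the oxidative import factor of the intermembrane space, averaged 20.0 ± 2.00 TPM in bortezomib fish and 15.1 ± 3.15 TPM in DMSO fish, a log2 fold change of 0.40 ± 0.11 (limma, adjusted p = 0.0424). That call was lost in 13 of the 16 fits that left out 1 fish, all but those without bortezomib replicate 3 or DMSO replicate 2 or 3 (limma, adjusted p up to 0.0800), and without the 4 pituitary-marker fish (adjusted p = 0.158). The row CHCHD4 (2 OF 2) averaged 15.2 ± 1.77 TPM in bortezomib fish and 13.0 ± 2.30 TPM in DMSO fish and was not called (limma, adjusted p = 0.246).

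The matrix chaperones were not called. HSPA9, the motor that TIMM44 tethers, averaged 99.5 TPM in bortezomib fish and 109.05 TPM in DMSO fish. HSPD1 and HSPE1, which fold imported proteins, averaged 103 and 367 TPM in bortezomib fish and 112 and 376 TPM in DMSO fish.

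Of 23 tested rows for other mitochondrial transporters and channels, 4 were called higher and none lower, a share of 17.4% beside 4.86% of all tested genes (3.61% higher), and the median log2 fold change was 0.10, beside 0.03 of all tested genes. VDAC2, an outer-membrane channel for metabolites, averaged 280.3 ± 16.5 TPM in bortezomib fish and 217.5 ± 21.6 TPM in DMSO fish, with all 8 bortezomib fish above all DMSO fish and a log2 fold change of 0.37 ± 0.06 (limma, adjusted p = 0.00263). Its second row, VDAC2 (2 OF 2), had a log2 fold change of 0.28 ± 0.07 (limma, adjusted p = 0.0264), and VDAC3 (1 OF 2) one of 0.25 ± 0.07 (limma, adjusted p = 0.0376). The row VDAC3 Nfu_g_1_007432 (0.10; limma, adjusted p = 0.423) and VDAC1 (0.10; limma, adjusted p = 0.330) were not called. SFXN1, a mitochondrial serine transporter outside the SLC25 family, averaged 16.6 ± 4.77 TPM in bortezomib fish and 9.57 ± 2.55 TPM in DMSO fish, a log2 fold change of 0.74 ± 0.19 (limma, adjusted p = 0.0319). Without the 4 pituitary-marker fish VDAC2 kept its call, while VDAC2 (2 OF 2), VDAC3 (1 OF 2) and SFXN1 lost theirs (limma, adjusted p = 0.0834, 0.113 and 0.0761). Each of these 3 calls was also lost in some fits that left out 1 fish: VDAC2 (2 OF 2) without bortezomib replicate 6 or DMSO replicate 2 or 3, SFXN1 without bortezomib replicate 2, 4, 5 or 6 or DMSO replicate 4, and VDAC3 (1 OF 2) without any of 9 fish. Of 16 regulators of mitochondrial biogenesis, none was called by limma (1 was higher and none lower at an unadjusted p under 0.05, where 14.2% and 6.94% of all tested genes were), beside 4.86% of all tested genes called; the median log2 fold change was 0.05. TFAM, the mitochondrial DNA packaging factor, averaged 147 TPM in bortezomib fish and 135 TPM in DMSO fish (limma, adjusted p = 0.133). Of the 16 log2 fold changes 9 were positive and 7 negative, the most negative being -0.31 for NRF1 (limma, adjusted p = 0.253).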

How the data were processed

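RNA came from individual whole brains, per the labels' protocols. Per the submitters' processing notes, the tools included STAR and bcl2fastq 2.20.0.422; neither a read counter nor a genome build or annotation is given in the sources used. The values are TPM that the authors deposited in 1 table, each column summing to 1000000. Because TPM holds no read totals, intervals for counting error could not be given; relative depth was read from the steps between low values.

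Genes at 1 TPM or more in 8 or more fish (18529 rows) were tested with limma 3.58.1 in R 4.3.3 on log2(TPM + 1), with the trend option and no covariates. P-values were two-sided and Benjamini-Hochberg adjusted, with a threshold of 0.05. Fold changes on this scale understate low genes. The test was checked on simulated data with independent normal noise and added changes larger than those of most members. Smaller changes and outlying fish were not simulated. Members, lists and tests were chosen with earlier results of these data known. Named were every called member, a core set of import and carrier genes, the 3 largest rises and falls, the 3 most abundant genes of each class and called genes of the lists; others were named after their values were seen. Gene symbols are the file's own. Its identifiers had 0 matches in the RefSeq gene table, so neither coordinates nor sequences are given. Alternatives were median-of-ratios scaling, quantile normalization, a pseudocount of 0.1, other filters, a replicate block, the first principal component as covariate and each fish left out. Leaving out the 4 pituitary-marker fish and the exact permutation test of copies were added after seeing the data. The values of 1 carrier gene, included in all counts and medians, are not reported here.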

Additional observations from a re-analysis of the deposited data

Results flagged for a closer look

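Of 130 groups of 8 fish (65 genes in 2 groups), 11 held a fish set apart from the others by more than Dixon's limit, 8.46%, where chance gives about 1 in 20. In 7 of the 11 that fish was bortezomib replicate 8. It was lowest in SLC25A28 (75.6 TPM, next fish 129), SLC25A36 (2 OF 2) Nfu_g_1_014100 (21.2 TPM, next 31.3), SLC25A46 (23.7 TPM, next 32.8), SLC25A40 Nfu_g_1_001310 (3.64 TPM, next 5.02) and TIMM50 (11.6 TPM, next 16.5). It was highest in SLC25A6 Nfu_g_1_005294 (1390 TPM, next 1163) and TIMM23 (194 TPM, next 170).

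The other 4 were TOMM34 in bortezomib replicate 3 (75.9 TPM, next 56.5), SLC25A43 in DMSO replicate 1 (5.80 TPM, next 3.64), SLC25A44B in DMSO replicate 7 (8.36 TPM, next 12.8) and SLC25A41 Nfu_g_1_013025 in DMSO replicate 8 (12.1 TPM, next 8.02).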

How the results depend on the processing

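The count of all called genes, 901, became 491 with a replicate block and 325 without the 4 pituitary-marker fish, and lay between 485 and 1108 with 1 fish left out; it fell by over 1.5 times without bortezomib replicate 4 (533), bortezomib replicate 6 (485) or DMSO replicate 7 (586). Its split into higher and lower calls, 669 and 232, became 537 and 388 with median-of-ratios scaling and 547 and 557 with quantile normalization. Import genes called higher, 3, became 1 without the 4 fish and 2 to 3 with 1 fish left out. The import gene called lower, 1, became 0 with median-of-ratios scaling, the replicate block, the first principal component and without the 4 fish, and lay between 0 and 1 with 1 fish left out. Carriers called higher, 2, became 1 with median-of-ratios scaling, quantile normalization, a pseudocount of 0.1 and the first principal component, 0 with no filter, the replicate block and without the 4 fish, and 0 to 2 with 1 fish left out; the 1 under the principal component was SLC25A25B, and the 2 without bortezomib replicate 8 include SLC25A14, neither called otherwise. The carrier called lower was 1 throughout. With 1 fish left out the median log2 fold change was 0.09 to 0.13 for import genes (0.067 with quantile normalization) and 0.0056 to 0.036 for carriers. SLC25A25A kept its call in every setting, and TOMM70A in all but the replicate block (limma, adjusted p = 0.0634). Beyond the losses given with the results, TIMM10B and SLC25A42 lost theirs with median-of-ratios scaling and quantile normalization, TOMM20B with median-of-ratios scaling, the block and the principal component, TIMM44 (2 OF 2) with no filter, SLC25A42 with no filter, the block and the component, and SLC25A41 Nfu_g_1_013025 with these and a pseudocount of 0.1. CHCHD4, VDAC2 (2 OF 2) and VDAC3 (1 OF 2) lost theirs with both other scalings. Calls among the list genes were also lost with no filter, with the block and with the component. In the 3 pairs of copies that passed, the unadjusted p stayed under 0.05 with each fish left out (exact permutation, p up to 0.0112). It also did so with a pseudocount of 0.1 and with quantile normalization. The adjustment over all pairs was not repeated in these fits, and the other settings were not run for pairs. Uncalled TIMM44 (1 OF 2) changed sign with the principal component (-0.035), as did SLC25A41 Nfu_g_1_011201 without the 4 fish (0.043) and with 1 fish left out (-0.076 to 0.066). Fish with the same number correlated between -0.240 and 0.415, and none best with its own number. This check cannot show whether the numbers are a pairing. The cause of these shifts was not tested.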
